A study of Mus musculus with 24 samples.

Results

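The comparison concerns how the bone marrow and the liver of male Erfe-/- mice differed in their response 48 h after phlebotomy, the removal of blood. It uses 16 of the 24 arrays of the series, chosen by sample title: 4 of liver and 4 of bone marrow at 0 h (Liver-T0, BM-T0), and 4 of each tissue at 48 h (Liver-T48, BM-T48). All groups were male Erfe-/- mice, so the 0 h group, labelled as control, lacked Erfe too; no wild-type mice enter the comparison, and the age and strain background are not given in the sources used here. The study used 4 mice per time, bled by puncture behind the eye, total RNA of whole tissue was labelled with Cy3, and 1 sample was hybridised to each single-colour array. A level is the log2 signal minus the array's own 75th percentile, a change is the 48 h mean minus the 0 h mean, and the difference between tissues is the marrow change minus the liver change, so that a value of 1 is a 2-fold larger ratio in marrow. A gene counted as measured in a tissue when the scanner software marked its probe well above background throughout 1 or both of that tissue's groups. Probe positions are those of the file headers on mm9; their exonic or UTR location was not analysed here. In all, 17578 genes were measured in both tissues, 3503 in marrow alone and 1300 in liver alone.

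Erythroferrone, the product of Erfe, is a hormone that erythroblasts release under erythropoietin and that restrains the liver's production of hepcidin, the hormone which limits iron entry into plasma. Blood loss raises erythropoietin, which acts through its receptor and the factor STAT5 on erythroblasts of the marrow. The marrow is therefore the site where red cells are made, while the liver senses iron, stores it and responds to signals from the marrow. Both tissues also contain blood, macrophages and lymphocytes.

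The arrays of a tissue were alike, with Spearman correlations of 0.983 to 0.991 among the 8 liver arrays and 0.985 to 0.994 among the 8 marrow arrays. The 75th percentile of signal was 361.2 to 473.1 intensity units in liver and 715 to 954.7 in marrow, and 28078 to 33201 and 32368 to 35771 probes were well above background. All 7 hepatocyte markers were above background in liver, and their summed signal on the marrow arrays was at most 0.0579% of that in liver at 0 h, with 4 of 7 markers above background at 0 h and 3 of 7 at 48 h. All 7 erythroblast markers, among them Hba-a2 and Hbb-bt, were above background in marrow. Precision is limited by the number of arrays, with a median standard error of 0.16 for a difference between tissues and 0.12 for a change within either tissue.

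The tissues responded differently for 149 of 17578 genes (0.848%; limma, Benjamini-Hochberg adjusted p under 0.05), with a more positive change in marrow for 125 (0.711%) and a more negative one for 24 (0.137%). In these 149 genes the change was larger in size in marrow for 129, and the 48 h and 0 h arrays did not overlap in marrow for 141 and in liver for 54. Over all genes they did not overlap in marrow for 13.5% and in liver for 4.23%, and the 149 were called on these same arrays. The changes had opposite signs in 126 of them, and 45 had separated arrays in both tissues in opposite directions. Over all genes the changes had the same sign in 47.6%, and the arrays were separated in opposite directions in 0.444%. The 149 were chosen by this difference, which favours opposite signs, so these counts are no independent support. At an unadjusted p under 0.05 there were 2626 genes. The difference was at least 2-fold for 25 of the called genes. All 149 had the same sign within each of the 3 slides, as had 39.1% of the 17521 genes with a value on every slide; the 149 were chosen on these arrays, so this is no independent support.

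In the same fit, 570 genes (3.24%) changed in marrow, 450 up and 120 down, and 7 (0.0398%) in liver, 5 up and 2 down (0.0114%). Of the 570 marrow genes, 123 also differed between the tissues, and 252 (44.2%) had a liver change of the same sign, against 47.6% of all genes. Across the 17578 genes the marrow and liver changes had a Pearson r of 0.0168 and a Spearman rho of -0.0346; genes are not independent replicates, and all of these values share the 16 arrays. Fitted on the 8 arrays of the tissue, marrow gave 171 genes and liver 0, with a smallest adjusted p of 0.193 over the 18896 genes kept in liver, where 1398 had an unadjusted p under 0.05. The cause of this drop was not tested.

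The number of differences depended on single arrays. It was 35 without liver 0 h replicate 2, 36 without liver 0 h replicate 4 or liver 48 h replicate 2, 42 and 29 without liver 48 h replicates 3 and 4, 26, 28 and 46 without marrow 0 h replicates 1, 2 and 3, and 44, 27 and 75 without marrow 48 h replicates 1, 2 and 4. Leaving out any other array gave 105 to 147. The marrow count was 199 and 250 without marrow 0 h replicates 2 and 3, 350 and 135 without marrow 48 h replicates 1 and 2, and 389 to 613 otherwise. The liver count was 18 without liver 0 h replicate 1, 23 without liver 48 h replicate 1, 1 without liver 48 h replicate 2, 0 without liver 48 h replicates 3 or 4, 2 without marrow 0 h replicate 3, and 3 and 4 without marrow 48 h replicates 1 and 4. The split into higher and lower calls also moved with the scaling, from 125 and 24 to 117 and 42 under quantile normalisation of the 16 arrays and to 78 and 29 under quantile normalisation within each tissue. For marrow the corresponding splits were 450 and 120, 577 and 308, and 470 and 214.

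**Figure D1:**
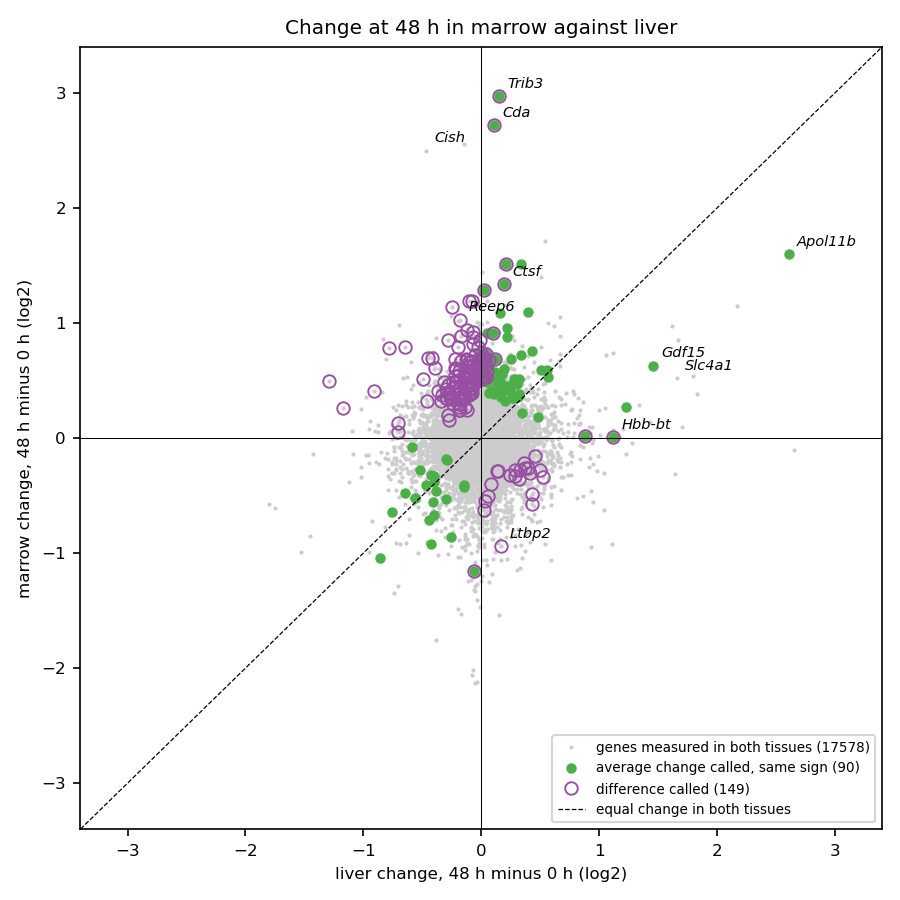
Change at 48 h in marrow (vertical, log2) against the change in liver (horizontal, log2) for 17578 genes measured in both tissues. Open rings mark the 149 genes whose changes differed between the tissues and filled green points the 90 genes whose average change was called with the same sign in both. Most rings lie near 0 on the liver axis and away from 0 on the marrow axis, with Trib3 the highest in marrow; Apol11b and Gdf15 lie to the right in liver.

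The smallest adjusted p among genes above background on all 16 arrays belonged to Ctsf, which encodes the lysosomal protease cathepsin F (probe on mm9 chromosome 19, 4860454 to 4860513). On the marrow arrays its level was 0.42, 0.35, 0.33 and 0.44 at 0 h and 1.66, 1.66, 1.92 and 1.64 at 48 h. In liver it was 1.0, 0.83, 0.96 and 0.96 at 0 h and 1.09, 1.25, 1.05 and 1.12 at 48 h. Relative to each array's own 75th percentile, which was higher in marrow, the marrow thus began below the liver and ended above it. In unscaled signal this order was not examined. The 48 h and 0 h groups overlapped in neither tissue. The marrow change was 1.34, the liver change 0.19 and the difference 1.15 (SE 0.11, limma adjusted p 0.000291).

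Reep6, which encodes a protein of endoplasmic reticulum membranes, is abundant in liver (chromosome 10, 79799113 to 79799172). Its marrow level went from 0.93, 1.0, 0.98 and 1.14 to 2.04, 2.17, 1.88 and 2.08, while liver held 7.65, 7.72, 7.85 and 7.82 at 0 h and 7.68, 7.72, 7.38 and 7.54 at 48 h. Marrow rose without overlap and the liver groups overlapped, giving a difference of 1.21 (SE 0.12, limma adjusted p 0.000467). The vitamin C transporter Slc23a1 rose by 1.14 in marrow, from -2.65 to -2.10 at 0 h to -1.26 to -1.16 at 48 h, with a liver change of -0.25 and a difference of 1.40 (adjusted p 0.00161). Glo1, the enzyme that removes the glycolytic by-product methylglyoxal, was 2.73, 2.67, 2.88 and 2.79 in marrow at 0 h and 3.61, 3.68, 3.50 and 3.42 at 48 h, with 5.55 to 5.73 and 5.50 to 5.68 in liver. Its difference was 0.82 (adjusted p 0.00402), and its other 2 probes gave 0.90 and 0.75.

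Other genes rose in marrow with a liver mean that was lower at 48 h. Ces2g, a carboxylesterase (chromosome 8, 107492279 to 107492338), stood at nearly the same level relative to the array's 75th percentile in both tissues at 0 h. It was 1.63, 1.51, 1.59 and 1.64 in liver and 1.27, 1.46, 1.53 and 1.74 in marrow. At 48 h it was 1.31, 1.02, 1.25 and 1.11 in liver and 2.23, 2.42, 1.99 and 2.16 in marrow. The 2 tissues parted in both directions without overlap between times, and the difference was 1.12 (SE 0.15, limma adjusted p 0.00456). Ces2 genes form a family of close copies, so cross-hybridisation between them was not tested. Mtfp1, which promotes mitochondrial fission, had changes of 0.49 in marrow and -0.24 in liver (difference 0.73, adjusted p 0.00456). Hspbap1, a partner of the small heat shock protein Hspb1, had changes of 0.51 and -0.49 (difference 1.0, adjusted p 0.00552) and Tceal8 of 0.61 and -0.39 (difference 1.01, adjusted p 0.00616). The liver arrays were separated for Mtfp1 and Hspbap1 and overlapped for Tceal8. The liver changes of these 4 genes did not pass the test in liver, with adjusted p-values of 0.163 to 0.410. The calls of Ctsf, Slc23a1, Ces2g and Tceal8 held in every alternative run for them, which left out each of 16 arrays or changed 1 of 20 other choices. Bdh1, an enzyme of ketone body metabolism, rose in marrow by 0.85 from -1.04, -0.80, -1.06 and -0.86 to -0.03, -0.02, -0.13 and -0.18, with -0.01 in liver (difference 0.86, adjusted p 0.00866).

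Of the 24 genes with a negative difference, 12 fell in marrow, against 0.683% of all genes, and 23 had a liver change above 0. They were chosen by that difference, which favours such signs. Ltbp2, a matrix protein that binds fibrillin (chromosome 12, 86124167 to 86124226), was 0.52, 0.91, 0.86 and 0.94 in marrow at 0 h and -0.01, -0.17, -0.13 and -0.21 at 48 h. Liver held -2.10, -1.95, -1.61 and -2.15 and then -1.66, -1.73, -1.73 and -2.02. Marrow therefore fell without overlap while the liver groups overlapped, and the difference was -1.11 (SE 0.18, limma adjusted p 0.0122). The lymphatic growth factor gene Vegfc fell by 0.55 in marrow with a change of 0.03 in liver (difference -0.59, limma adjusted p 0.027), and its other probe gave -0.38. The Vegfc call was lost without 7 of the 16 arrays, taken singly, and in 5 of 20 other choices. Summed markers of marrow stroma were 92.7 to 111% of their 0 h mean in marrow at 0 h and 41.5 to 96.1% at 48 h, with all 4 above background; their part in these values was not tested. In bulk tissue, fewer cells of a type and less RNA per cell cannot be told apart.

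Over all genes the 48 h and 0 h arrays did not overlap in liver for 4.23%. The 8 remaining genes named here by the smallest p-values were chosen on these same arrays. In 7 of them the liver arrays at 48 h all lay above those at 0 h. These were Qpct, which forms pyroglutamate ends on peptides (marrow -0.57, liver 0.43), the anion transporter gene Slco4a1 (-0.30 and 0.41), Rfx3, a transcription factor of ciliated cells (-0.22 and 0.36), and Map3k14, a kinase of the alternative NF-kappaB pathway (-0.26 and 0.40). The others were the ciliary rootlet gene Crocc (-0.28 and 0.29), Agt, which encodes angiotensinogen (-0.36 and 0.32), and Mpzl1 (-0.33 and 0.29). The GTPase gene Rras2 was the exception, with -0.63 in marrow and 0.02 in liver. Their differences ran from -1.01 for Qpct to -0.58 for Rfx3 and Crocc, with limma adjusted p-values of 0.027 to 0.0348. Other probes gave differences of -0.11 for Slco4a1, -0.26 and -0.22 for Map3k14 and -0.48 for Rras2. Each of these 8 calls was lost without at least 5 of the 16 arrays, taken 1 at a time.

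**Figure D2:**
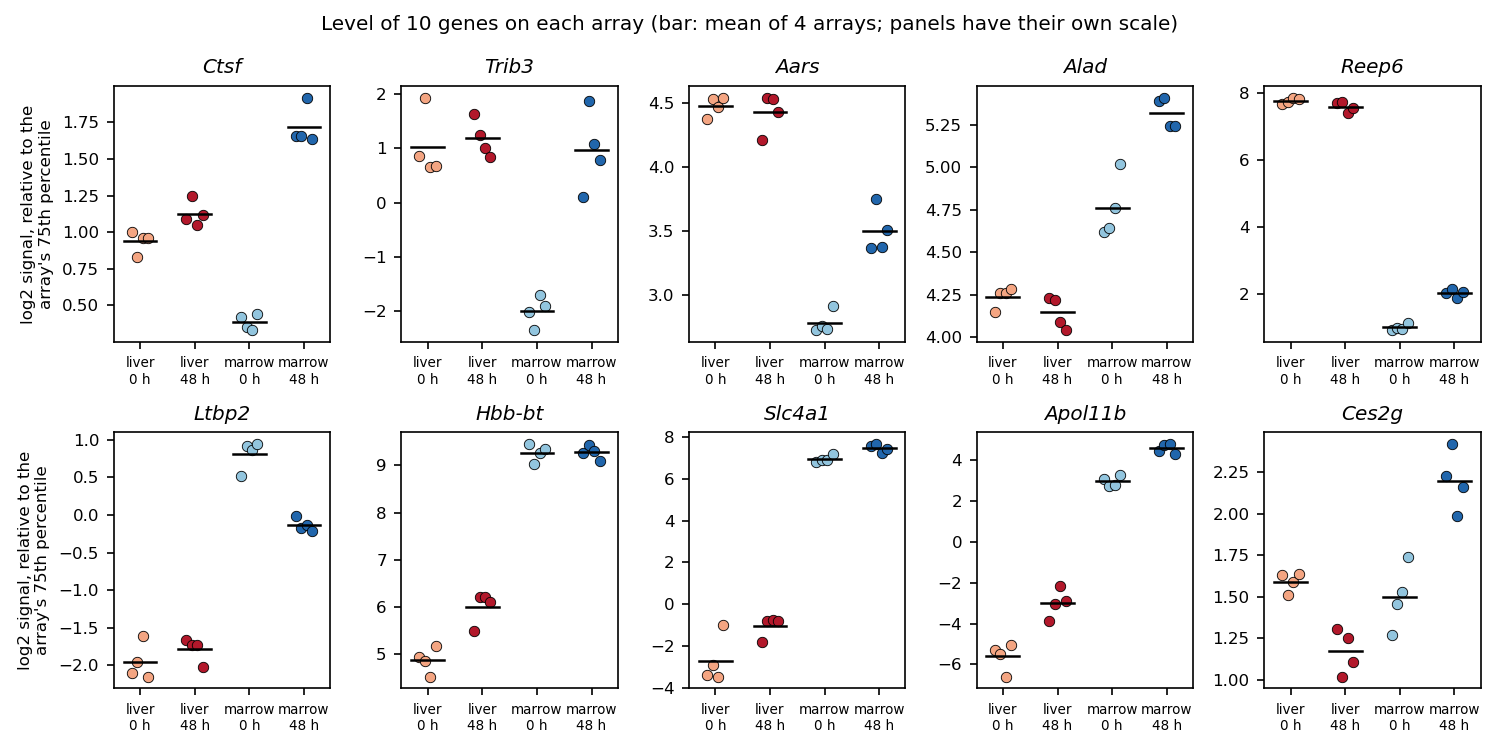
Level of 10 genes on each of the 16 arrays (log2 signal relative to the array's 75th percentile; points are arrays, bars are means of 4, and each panel has its own vertical scale). In Ctsf, Trib3, Aars, Alad and Reep6 the marrow groups are separated. The liver groups of these genes overlap, except in Ctsf, where they are separated by less than in marrow. Ltbp2 fell in marrow, Hbb-bt rose in liver, and the Apol11b points at 48 h lie above those at 0 h in both tissues.

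Heme is built from glycine and succinyl-CoA by 8 enzymes, from the aminolevulinate synthases to ferrochelatase, with transporters that feed the mitochondrion. All 13 genes of this list were measured in both tissues. In marrow 8 of 13 rose, against 2.56% of all genes, and in liver 0 of 13 passed, against 0.0398%. The difference between tissues was positive for 12 of 13, against 9739 of 17578 over all genes, with a median of 0.51 against 0.03. The list's median ran down to 0.37 under other scalings. It passed for 3, against 0.848% of all genes, among them Alad and Cpox. Alad, the enzyme that joins 2 aminolevulinate molecules, was 4.62, 4.64, 4.76 and 5.02 in marrow at 0 h and 5.39, 5.41, 5.24 and 5.24 at 48 h, and 4.15 to 4.28 and 4.04 to 4.23 in liver (difference 0.66, SE 0.12, limma adjusted p 0.0326). Its marrow groups were separated, and its liver groups overlapped. Cpox, a later mitochondrial enzyme, rose by 0.69 in marrow (difference 0.81, adjusted p 0.0373); its other probe gave a smaller difference of 0.28, with a change of 0.32 in liver. Alas2, the erythroid enzyme of the first step, had changes of 0.18 in marrow and -0.32 in liver (difference 0.51, adjusted p 0.259). Alas1, its counterpart in other tissues, had changes of -0.20 and -0.06. The calls of Alad and Cpox were lost without 10 and 13 of the 16 arrays taken singly, with limma adjusted p-values of up to 0.082 and 0.093. Both calls were also lost with either quantile normalisation, with median scaling and with the authors' processed values.

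Aminoacyl-tRNA synthetases charge transfer RNAs with their amino acids, and the cytosolic ones are known targets of ATF4, the factor of the integrated stress response. All 12 listed synthetases were measured in both tissues. In marrow 9 of 12 rose, against 2.56% of all genes, and in liver 0 passed, against 0.0398%. The difference was positive in all 12, against 9739 of 17578 over all genes, with a median of 0.42 against 0.03. It passed for Tars, Aars and Gars, against 0.848% of all genes. Tars, the threonine enzyme (chromosome 15, 11313527 to 11313586), was 2.40, 2.47, 2.44 and 2.42 in marrow at 0 h and 2.72, 3.0, 2.87 and 2.86 at 48 h. In liver it was 5.01, 4.98, 5.11 and 5.17 and then 4.75, 4.70, 4.72 and 4.89. The groups were separated upwards in marrow and downwards in liver (difference 0.73, SE 0.10, limma adjusted p 0.00537). Aars, the alanine enzyme (chromosome 8, 113579376 to 113579434), rose from 2.73, 2.76, 2.74 and 2.92 to 3.37, 3.75, 3.38 and 3.51 in marrow and overlapped in liver (difference 0.76, adjusted p 0.027; other probe 0.69). Gars, the glycine enzyme, rose by 0.44 in marrow and had a change of -0.09 in liver (difference 0.53, limma adjusted p 0.0473). Taken singly, 15 of the 16 arrays ended the call of Gars when left out and 6 that of Aars. Of 20 other choices, 12 ended the call of Gars and 3 that of Aars.

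In the wider integrated stress response list, 24 of 30 genes were measured in both tissues. Of these, 6 rose in marrow, against 2.56% of all genes, and 0 passed in liver, against 0.0398%. The difference was positive for 18 of 24, from -1.09 to 2.82, with a median of 0.26 against 0.03 over all genes. It passed for 3, against 0.848% of all genes, namely Shmt2, Trib3 and Atf5. Of the 3 list genes measured in marrow alone, 1 fell, the cystine transporter gene Slc7a11 (change -0.78, limma adjusted p 0.0134). Trib3, a pseudokinase that feeds back on ATF4 (chromosome 2, 152163161 to 152163220), had marrow levels of -2.03, -2.36, -1.71 and -1.92 at 0 h and 0.10, 1.87, 1.09 and 0.79 at 48 h. Liver levels were 0.86, 1.94, 0.66 and 0.68 and then 1.64, 1.24, 1.01 and 0.85. The 4 marrow arrays at 48 h lay above the 4 at 0 h, the liver groups overlapped, and the difference was 2.82 (SE 0.47, limma adjusted p 0.0197). The call was lost without liver 48 h replicate 4 or marrow 0 h replicates 1 or 2, with an adjusted p of up to 0.0557. Shmt2, the mitochondrial serine hydroxymethyltransferase, rose from 1.91, 1.70, 1.89 and 1.85 to 2.45, 2.90, 2.78 and 2.75 in marrow (difference 0.95, adjusted p 0.00537; other probe 0.65). Atf5, a transcription factor of this response, rose by 0.82 in marrow (difference 0.90, adjusted p 0.0438), and its call was lost without 13 of the 16 arrays, taken singly. Ddit3, the factor CHOP, had changes of 0.30 in marrow and -0.04 in liver (adjusted p for the difference 0.425). Atf4 itself had changes of 0.39 and -0.11 (adjusted p 0.115).

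The promoters of Tars, Aars, Gars and Trib3 are shown because these 4 called genes hold the C/EBP-ATF element of ATF4 targets. The letters TGATGNAA were searched on both strands in RefSeq promoters (GRCm38.p6, 250 bases before to 50 after the start, the first promoter listed for a gene). They occurred in 5 of the 8 synthetase promoters present in that table (62.5%) and in 8 of 27 stress response promoters (29.6%), against 4.05% of 27018 promoters. The called genes Shmt2 and Atf5 are not among the stress response genes with a match, whereas Slc7a11, which fell in marrow, is. Capitals mark the match, read here on the opposite strand, which begins at position -15 in Tars, at -112 and 9 in Aars, at -30 in Gars and at 14 in Trib3, counted from the start as 0; none of these matches overlaps a STAT or E-box match. The list genes had been chosen as known members of the pathway, and a match is a description of letters.
Tars, chr15:11399609-11399908, minus strand: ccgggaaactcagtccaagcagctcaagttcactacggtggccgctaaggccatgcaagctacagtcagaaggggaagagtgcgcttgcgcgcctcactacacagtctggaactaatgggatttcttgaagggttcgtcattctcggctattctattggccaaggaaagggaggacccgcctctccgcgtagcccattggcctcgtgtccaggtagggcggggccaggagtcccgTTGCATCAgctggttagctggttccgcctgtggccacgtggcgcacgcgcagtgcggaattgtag
Aars, chr8:111033592-111033891, plus strand: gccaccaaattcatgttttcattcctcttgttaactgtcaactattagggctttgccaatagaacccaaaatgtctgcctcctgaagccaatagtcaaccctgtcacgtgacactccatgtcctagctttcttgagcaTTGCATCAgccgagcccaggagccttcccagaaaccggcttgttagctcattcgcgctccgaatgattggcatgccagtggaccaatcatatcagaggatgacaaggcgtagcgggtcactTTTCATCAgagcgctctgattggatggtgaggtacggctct
Gars, chr6:55037751-55038050, plus strand: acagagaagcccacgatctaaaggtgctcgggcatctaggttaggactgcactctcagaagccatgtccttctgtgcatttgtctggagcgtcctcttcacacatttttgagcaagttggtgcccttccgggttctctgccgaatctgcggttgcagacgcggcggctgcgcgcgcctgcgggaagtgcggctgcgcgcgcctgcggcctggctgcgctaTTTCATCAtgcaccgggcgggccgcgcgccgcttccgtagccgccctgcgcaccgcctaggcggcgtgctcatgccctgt
Trib3, chr2:152344011-152344310, minus strand: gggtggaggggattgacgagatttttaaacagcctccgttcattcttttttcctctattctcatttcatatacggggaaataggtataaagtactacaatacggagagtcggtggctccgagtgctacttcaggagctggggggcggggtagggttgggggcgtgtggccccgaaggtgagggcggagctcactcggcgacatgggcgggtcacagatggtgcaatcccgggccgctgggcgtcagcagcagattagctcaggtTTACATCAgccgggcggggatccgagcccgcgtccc

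Among 11 erythroid transcription factors measured in both tissues, 10 had a positive difference, against 9739 of 17578 over all genes. In marrow 2 rose, against 2.56% of all genes, and 1 differed between tissues, against 0.848%. That gene was Tal1, a master factor of blood formation, with marrow levels of 3.92, 3.94, 4.05 and 4.18 at 0 h and 4.74, 4.84, 4.55 and 4.48 at 48 h, and liver levels of -2.20 to -2.06 and -2.17 to -2.01 (difference 0.60, SE 0.12, limma adjusted p 0.0398). The groups were separated in marrow and overlapped in liver, and the call was lost without 12 of the 16 arrays, taken singly. Klf1 had changes of 0.49 in marrow and -0.11 in liver, with an adjusted p of 0.185 for the difference (other probe 0.65 and 0.08). In the red cell membrane list, 6 of 16 genes were measured in both tissues and 10 in marrow alone, so most of this list gives no difference. Rhd, a blood group antigen gene, had a difference of 0.79 (adjusted p 0.0474) from a dim liver signal of -3.64 to -2.85; where other filters chose another probe the difference was -0.98, and in the authors' processed values it was -0.39.

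Cish, a feedback target of STAT5, had separated marrow arrays but no called difference (probe on chromosome 9, 107204196 to 107204255). Its marrow levels were -0.22, -0.61, -0.25 and -0.12 at 0 h and 1.95, 2.47, 2.39 and 1.98 at 48 h. Liver varied from -0.88 to 2.92 at 0 h, with 2.92, -0.88, 2.66 and 1.71, and held 0.77, 0.29, 0.76 and 2.68 at 48 h. The marrow groups did not overlap, and the 48 h range in liver lay within the 0 h range. The difference was 2.97 with an SE of 0.93 (limma adjusted p 0.156). An exact two-sided permutation test of marrow minus liver on same-numbered arrays gave p 0.0571, where 0.0286 is the smallest possible. That test pairs the tissues by replicate number, a pairing not given in the sources used here. Socs2, another feedback target, also varied in liver, from 0.67 to 2.75 at 0 h, and had changes of 0.12 in marrow and -0.27 in liver, while other probes gave 0.01 and 0.35, and 0.04 and -0.13. Pim1, a STAT5-induced kinase, rose by 0.96 in marrow and had a change of 0.22 in liver (adjusted p 0.179 for the difference). Of the 18 genes in this list measured in both tissues, 1 rose in marrow, against 2.56% of all genes, and 0 differed between tissues, against 0.848%.

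The Cish promoter is shown because it holds the STAT letters TTCNNNGAA at 2 places, positions 0 and 11 from the annotated start, marked in capitals. Of 15 promoters of the list present in the table, 2 hold them (13.3%), against 8.47% of all promoters.
Cish, chr9:107296409-107296708, plus strand: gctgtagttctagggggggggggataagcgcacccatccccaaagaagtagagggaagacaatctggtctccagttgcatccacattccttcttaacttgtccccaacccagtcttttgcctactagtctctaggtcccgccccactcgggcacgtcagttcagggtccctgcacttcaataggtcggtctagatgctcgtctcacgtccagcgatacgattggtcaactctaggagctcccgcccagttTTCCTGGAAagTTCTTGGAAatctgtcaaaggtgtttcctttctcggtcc

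Most of the listed mitochondrial genes passed no test. All 30 respiratory chain genes had a positive difference, against 9739 of 17578 over all genes. The median difference was 0.36, from medians of 0.17 in marrow and -0.20 in liver, and ran down to 0.23 under other scalings. Of these 30, 2 passed for the difference, against 0.848% of all genes, and 1 rose in marrow, against 2.56%. Ndufs3, a complex I subunit, was 4.02, 4.00, 4.07 and 4.12 in marrow and then 4.29, 4.24, 4.37 and 4.26, and 6.03, 5.99, 5.94 and 6.17 in liver and then 5.87, 5.84, 5.79 and 5.87 (difference 0.43, SE 0.09, limma adjusted p 0.0438). Both tissues were separated, in opposite directions. Atp5b, the beta subunit of ATP synthase, had a difference of 0.48 (adjusted p 0.0483). The calls of Ndufs3 and Atp5b were lost without 14 and 15 of the 16 arrays, taken singly. Hspd1, the mitochondrial chaperonin, rose by 0.41 in marrow, with 6.25, 6.25, 6.26 and 6.39 and then 6.11, 6.03, 6.05 and 6.10 in liver, and its difference of 0.62 (adjusted p 0.0109; other probe 0.74) held without each single array. In the antioxidant list 18 of 21 genes had a positive difference and 2 passed, beside the same all-gene shares. These 2 were the peroxiredoxins Prdx3 (0.63, limma adjusted p 0.0358) and Prdx2 (0.66, adjusted p 0.0398). Their calls were lost without 11 and 13 of the 16 arrays, taken singly.

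Genes of DNA replication had a positive difference in 30 of 35 cases, with medians of 0.28 in marrow and -0.01 in liver. Here 4 rose in marrow and 1, the origin recognition gene Orc6, differed between tissues (0.60, limma adjusted p 0.0373), a call that was lost without 12 of the 16 arrays, taken singly. The 18 mitosis genes measured in both tissues all had a positive difference, from 0.15 to 0.71, although 0 passed in any comparison and the smallest adjusted p was 0.153; another 19 mitosis genes were measured in marrow alone. Cdc20, an activator of the anaphase complex, had changes of 0.19 in marrow and -0.43 in liver, and the spindle gene Prc1 of 0.20 and -0.49. Ribosomal protein genes had a positive difference in 42 of 44 cases with a median of 0.12, which ran down to -0.01 under other scalings, and ribosome biogenesis genes in 23 of 24 with a median of 0.28; 0 genes of either list passed for the difference. Over all genes, for comparison, 9739 of 17578 had a positive difference, 2.56% rose in marrow and 0.848% differed between tissues.

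**Figure D3:**
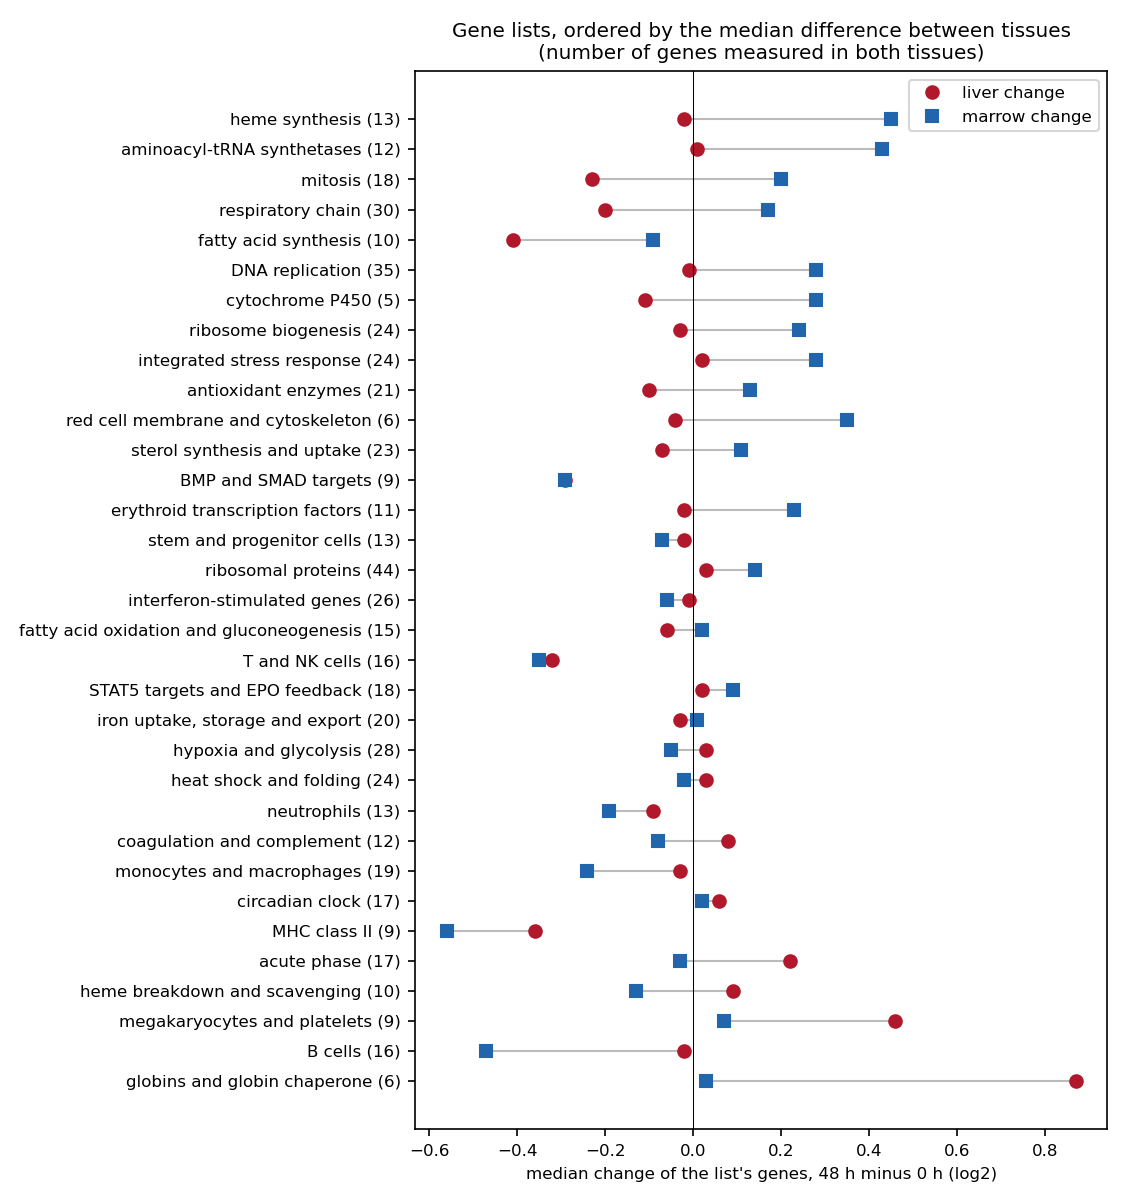
Median change at 48 h of each gene list in liver (red circles) and marrow (blue squares), on the log2 scale, over the genes measured in both tissues (number beside the name), ordered by the median difference. Heme synthesis and the aminoacyl-tRNA synthetases stand near 0 in liver and above 0.4 in marrow, globins stand at 0.87 in liver and 0.03 in marrow, and MHC class II genes lie below 0 in both.

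In the fit of 16 arrays, 3 of the globin transcripts rose in liver, and the median marrow change was 0.03. That fit shares the spread with marrow, and on the 8 liver arrays alone 0 genes passed (smallest limma adjusted p 0.193). Hbb-bt, an adult beta-globin gene (chromosome 7, 110961105 to 110961164), was 4.94, 4.86, 4.52 and 5.18 in liver at 0 h and 5.48, 6.20, 6.20 and 6.10 at 48 h. In marrow it was 9.45, 9.02, 9.27 and 9.34 and then 9.27, 9.44, 9.31 and 9.10. The liver groups were separated and the marrow groups overlapped, with a liver change of 1.12 (limma adjusted p 0.0279), a marrow change of 0.01 and a difference of -1.11 (SE 0.23, adjusted p 0.0447). Hba-a1 had liver levels of 7.38, 7.46, 7.34 and 7.60 and then 7.85, 8.48, 8.53 and 8.43, with a difference of -0.86 (adjusted p 0.0483), and Hba-a2 likewise -0.86 (adjusted p 0.0538). The alpha-globin genes are near-identical copies whose probes can share transcripts, as can those of the beta-globin genes. Of 6 genes in the list measured in both tissues, 3 rose in liver, against 0.0284% of all genes, and 0 in marrow. A negative difference was called for 2, against 0.137% of all genes, and 0 of 6 had a positive difference. Of the spots on the 16 arrays, 0 were saturated.

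Liver 48 h replicate 1 had the lowest globin levels of its group. Without it the differences were -1.28 for Hbb-bt and -1.02 for Hba-a1, with limma adjusted p-values of 0.0094 and 0.00644, and liver gave 23 calls in place of 7. The same array had the highest hepcidin level of the 48 h livers, 6.60 for Hamp against 4.74 to 5.39 on the other 3. Leaving out any of the other 15 arrays ended the call of Hbb-bt and of Hba-a1, with adjusted p-values of up to 0.0948 and 0.104.

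Other red cell transcripts did not all follow the globins in liver. Slc4a1, the band 3 anion exchanger, was -3.4, -2.88, -3.46 and -1.01 in liver at 0 h and -1.78, -0.78, -0.75 and -0.79 at 48 h. With replicate 4 at 0 h in the range of the 48 h arrays the groups overlapped, and its liver change of 1.66 did not pass (limma adjusted p 0.238). Among the 7 genes called in liver, Apol11b is described with the shared genes, and Gm32688 and Gm35287 are predicted genes. The platelet gene Gp9 had a change of 1.70 in liver, where 2 of the 4 livers at 0 h exceeded background, and of 0.10 in marrow (adjusted p for the difference 0.178). In contrast Alas2 had changes of -0.32 in liver and Klf1 of -0.11.

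The summed signal of the 7 erythroblast markers, which include both globins, was 13.6 to 16.9% of that of marrow at 0 h on the 0 h livers and 19.2 to 30.7% on the 48 h livers. In marrow it was 86.4 to 108% and then 95.7 to 118%. In liver 6 of these 7 markers were above background at both times. Megakaryocyte markers in liver went from 0.337 to 0.703% to 0.701 to 0.941%, with 1 and then 3 of 4 markers above background. The part of blood content in the liver result was not tested.

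**Figure D4:**
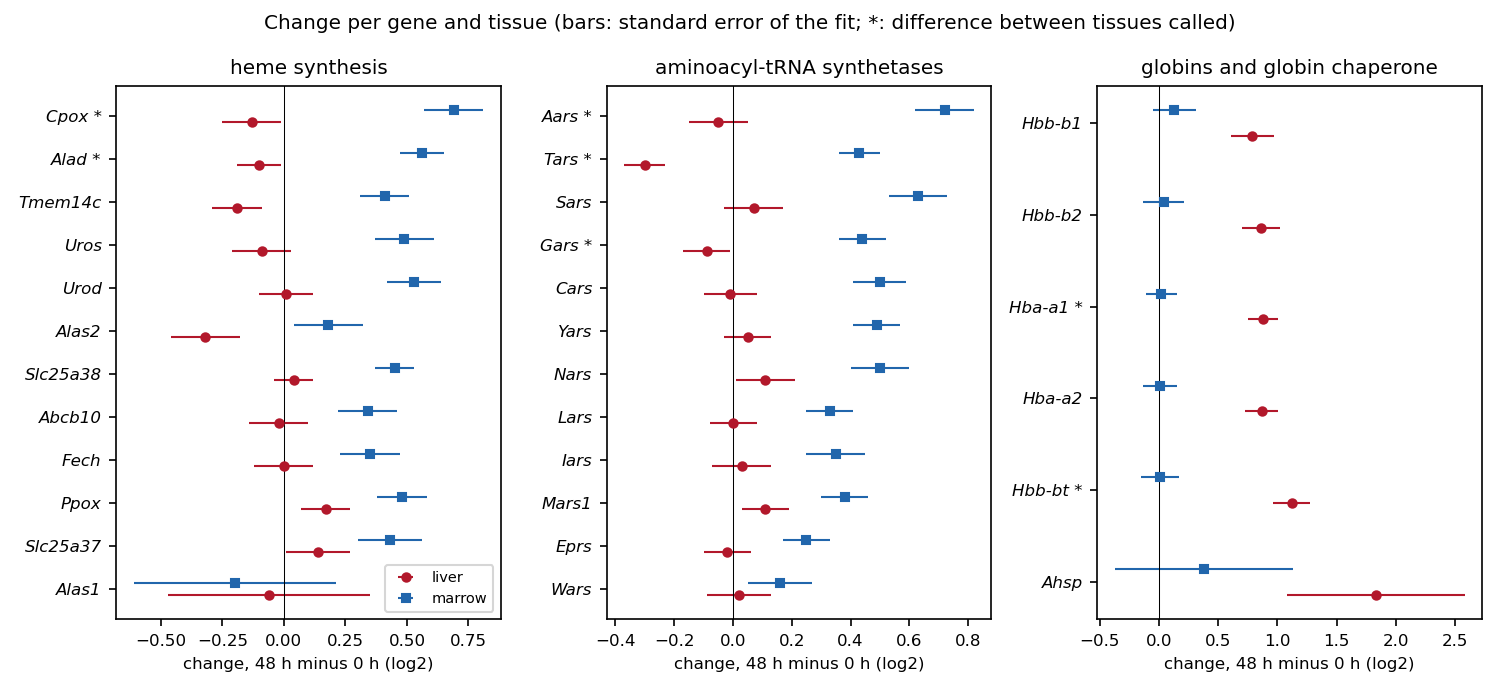
Change at 48 h (log2, horizontal) of genes of 3 lists in liver (red circles) and marrow (blue squares); bars are standard errors of the fit and an asterisk marks a called difference. In the heme and synthetase lists the marrow points lie to the right of the liver points except for Alas1, whose error bars overlap, and in the globin list the liver points lie to the right.

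Some genes changed on average over both tissues. A large change in either tissue can carry this average, so a call does not show a change in each of them. The average of the 2 changes passed with the same sign in both tissues for 90 genes (0.512%), 68 up and 22 down, and 22 of these also differed in size between the tissues. In 28 of the 90 (0.159% of all genes) the 48 h arrays lay on the same side of the 0 h arrays in both tissues. Without regard to any test, 44 genes (0.25%) were separated to the same side in both tissues and 78 (0.444%) to opposite sides. The count of 90 fell to 28 without marrow 0 h replicate 2 or marrow 48 h replicate 2, and to 31 to 56 without liver 0 h replicates 3 or 4, liver 48 h replicates 2 or 3, marrow 0 h replicates 1 or 3, or marrow 48 h replicates 1 or 4. It was 136 without marrow 48 h replicate 3.

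Apol11b, of the apolipoprotein L family, was among the shared genes (chromosome 15, 77464404 to 77464463). In marrow it was 3.06, 2.74, 2.79 and 3.26 at 0 h and 4.43, 4.75, 4.77 and 4.30 at 48 h. At 0 h its signal was not well above background in any liver, with -5.30, -5.48, -6.60 and -5.04, and was above background on 4 of 4 at 48 h, with -3.87, -3.03, -2.19 and -2.92. It rose by 1.60 in marrow (limma adjusted p 0.0184), and the liver increase was at least 2.83-fold. Apol11b counted as measured in liver through its 48 h arrays alone, so its liver separation and its average change are no support for a shared change. For this bound the 48 h mean is set against a 0 h mean in which each array enters with its own signal or the lowest signal well above background there, whichever is larger.

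Pla2g12a, a secreted phospholipase, had nearly the same change in both tissues. It was -0.66, -0.34, -0.56 and -0.58 in liver and then 0.20, 0.17, -0.15 and -0.08, and 0.94, 1.0, 1.02 and 1.06 in marrow and then 1.64, 1.76, 1.39 and 1.36. The changes were 0.57 in liver and 0.53 in marrow (average 0.55, limma adjusted p 0.00528). Naprt, which makes NAD from nicotinic acid, had changes of 0.23 and 0.45 (adjusted p for the average 0.00528), Pmm1, a phosphomannomutase, of 0.32 and 0.38 (0.00672), and the DNA glycosylase gene Mpg of 0.13 and 0.40 (0.0159). Syngr1, a vesicle protein gene, had changes of 0.56 in liver and 0.59 in marrow (0.0165) and Mettl2, a tRNA methyltransferase gene, of 0.32 and 0.37 (0.0177). Ctsf also passed, with an average change of 0.76 (limma adjusted p 6.52e-06). Most of this average came from its larger marrow change, given above. Gdf15, a stress hormone gene of the transforming growth factor family, had a larger change in liver, 1.46, than in marrow, 0.63; its average of 1.05 passed (adjusted p 0.0256) and its difference of -0.83 did not (0.332).

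Of the shared decreases with separated arrays in both tissues, 6 carry established gene symbols. The growth factor gene Ptn was -1.84, -2.48, -2.40 and -2.05 in liver and then -2.69, -2.61, -2.59 and -2.59, and -3.35, -2.86, -3.31 and -3.51 in marrow and then -4.21, -3.96, -4.11 and -4.45. Both tissues were lower at 48 h, with changes of -0.43 and -0.92 (average -0.68, limma adjusted p 0.0159). Kynu, of tryptophan breakdown, had an average change of -0.42 (0.0159), Ctsw, a protease of cytotoxic lymphocytes, -0.44 (0.0217) and the carboxylesterase gene Ces2e -0.54 (0.0217). Entpd5, a nucleotidase of the endoplasmic reticulum, had -0.39 (0.0255), and the endosomal adaptor gene Appl1 -0.24 (0.0435). Taken singly, 13 of the 16 arrays ended the call of Appl1 when left out, 7 that of Entpd5, 5 that of Ces2e and 4 that of Ctsw. The other Appl1 probe had changes of 0.04 in marrow and -0.19 in liver, and with the mean of the probes the average was -0.16 (adjusted p 0.728).

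MHC class II genes present antigen on B cells and macrophages. Of 9 MHC class II genes measured in both, 4 fell in marrow, against 0.683% of all genes, and 0 passed in liver, against 0.0398%. On average over both tissues 3 fell, against 22 of 17578 over all genes, and 0 differed between the tissues, against 0.848%. The medians were -0.56 in marrow and -0.36 in liver. H2-Ab1, a class II beta chain, was 5.11, 5.12, 4.93 and 5.13 in marrow and then 4.52, 4.13, 4.58 and 4.37, and 4.54, 3.77, 4.33 and 4.40 in liver and then 3.74, 3.84, 3.79 and 4.10. Marrow was separated, liver overlapped through replicate 2 at 0 h, and the average was -0.53 (limma adjusted p 0.0305). Ciita, the activator of class II genes, had changes of -0.71 and -0.44 (average -0.58, adjusted p 0.0425).

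B cell genes had a median change of -0.47 in marrow and -0.02 in liver. Of 16 genes, 1 had a positive difference, against 9739 of 17578 over all genes. In marrow 2 fell, against 0.683% of all genes, and 0 differed between tissues, against 0.848%. Vpreb1, of the pre-B cell receptor, fell in marrow by 1.03 and had a change of -0.20 in liver (limma adjusted p 0.226 for the difference), and Bank1 fell by 0.66 with 0.04 in liver (0.178). T and NK cell genes had medians of -0.35 in marrow and -0.32 in liver. Here 1 of 16 fell in marrow, Cd8b1, with a level of -0.18, 0.06, -0.04 and 0.13 and then -0.88, -1.15, -0.60 and -0.66, against 0.04 in liver (adjusted p 0.0669 for the difference). That list's median difference was 0.04 and ran down to -0.15 under other scalings. Summed B cell markers were 71.9 to 121% of their 0 h mean in marrow at 0 h and 51.4 to 96.2% at 48 h; T and NK cell markers were 83.7 to 130% and 58.3 to 111%. The part of cell makeup in these values was not tested.

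Genes measured in marrow alone allow a marrow change but no difference. Of 3503 such genes, 53 (1.51%) were called on the 8 marrow arrays, 39 up and 14 down. Plek2, a pleckstrin of the red cell cytoskeleton, was -2.24, -2.41, -2.19 and -1.98 and then -0.08, -0.02, -0.06 and -0.36 in marrow (change 2.08, limma adjusted p 0.000387), and its liver signal was above background on 2 of 8 arrays. Nacad rose by 2.25 (0.000387), Apol10a, another apolipoprotein L gene, by 2.31 (0.000952), the membrane peptidase gene Mmel1 by 1.48 (0.000952) and C2cd4a by 2.73 (0.00236). These 5 calls held in all alternatives run for them. Ankrd36 was well above background on 0 of 4 marrow arrays at 0 h and on 4 of 4 at 48 h, which bounds its increase at 8.05-fold or more. It entered the test through its 48 h arrays alone.

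The 6 genes that fell with the smallest p-values include products of basophils and lymphocytes. Mcpt8, a basophil protease, was 3.4, 3.14, 3.27 and 3.53 at 0 h and 2.52, 2.18, 2.32 and 2.46 at 48 h (change -0.96, limma adjusted p 0.0107). Prss34, a second protease of these cells, had a change of -0.86 (0.015) and the receptor gene Cd200r3 of -0.78 (0.015). Cd8a of T cells had a change of -0.91 (0.0113), the cystine transporter gene Slc7a11 of -0.78 (0.0134) and the lymphocyte GTPase gene Gimap7 of -0.81 (0.0201). The 4 arrays at 48 h lay below the 4 at 0 h for each of these genes, which were chosen on these same arrays. Among genes measured in both tissues, 13.5% had marrow arrays without overlap in either direction. With slide as a block 12 genes were called, 12 up and 0 down, and these 6 had adjusted p-values of 0.0533 (Cd200r3) to 0.131 (Gimap7). Left out singly, 5 of the 8 arrays ended the call of Gimap7, 4 that of Cd200r3, 3 each those of Prss34 and Slc7a11, 1 that of Cd8a and 0 that of Mcpt8. The number of called genes was 19 without marrow 0 h replicate 2, 22 to 31 without marrow 0 h replicates 1 or 3 or marrow 48 h replicates 1, 2 or 4, and 49 and 53 without marrow 48 h replicate 3 and marrow 0 h replicate 4.

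In liver, 0 of the 1300 genes measured there alone passed (0%), with 189 at an unadjusted p under 0.05 and a smallest limma adjusted p of 0.396. Hamp, the hepcidin gene, and Hamp2 belong here: each was above background on only 1 of 8 marrow arrays, so no difference between tissues was computed. Their liver changes were -1.76 (adjusted p 0.528) and -1.63 (0.549). Fatty acid synthesis genes were the liver list with the lowest median, -0.41 against -0.09 in marrow. All 10 had a positive difference, from 0.20 to 0.81, against 9739 of 17578 over all genes. None passed in any comparison, and over all genes 0.848% differed between tissues and 0.0398% changed in liver. The lipogenic gene Thrsp was 5.25, 5.51, 5.73 and 6.03 and then 5.16, 4.30, 4.69 and 4.52 in liver. Its liver change was -0.96 (limma adjusted p 0.208), and that of the carboxylase gene Acacb was -0.63 (0.213). Other probes of Acacb gave liver changes of 0.21 and -0.15, and the first of these a difference of -0.20.

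Of the candidate genes from hepcidin regulation, iron handling and red cell formation that were measured in both tissues, 2 differed, Trib3 and Hbb-bt. Over all genes 0.848% differed. Tfrc, the transferrin receptor, was 3.11, 3.23, 3.22 and 3.42 in marrow and then 4.30, 4.52, 4.01 and 4.24, and ranged from -1.77 to -0.21 and from -1.79 to -0.59 in liver (difference 1.22, SE 0.39, limma adjusted p 0.162). Its marrow groups were separated; in this fit, which shares the spread with the more variable liver, the marrow change of 1.02 had an adjusted p of 0.0542. The other Tfrc probe gave a difference of 1.08. Tfr2, the second transferrin receptor, rose by 0.57 in marrow and had a change of 0.15 in liver (0.342 for the difference; other probe 0.38). Hmox1, which breaks heme down, had changes of -0.73 in marrow and 0.25 in liver (difference -0.98, adjusted p 0.109). Slc40a1, the iron exporter ferroportin, had changes of -0.23 in marrow and 0.08 in liver (other probe 0.17 and 0.27), and Epor of 0.27 and 0.03. In the iron list 0 of 20 genes differed between tissues, against 0.848% of all genes. In marrow 1 of them rose, against 2.56%, and 0 passed in liver, against 0.0398%.

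Targets of BMP and SMAD signalling, the pathway that drives hepcidin, had the same median change in both tissues, -0.29. None of the 9 measured in both passed in any comparison (0 of 9, smallest limma adjusted p for the difference 0.284). Over all genes 0.848% differed between tissues, 3.24% changed in marrow and 0.0398% in liver. Smad7 had changes of -0.72 in liver and -0.28 in marrow (average -0.50, adjusted p 0.0762; other probe 0.04 and 0.33), Id1 of -0.62 and -0.29, Smad6 of 0.05 and -0.46, Atoh8 of -0.37 and 0.08, and the ligand gene Bmp6 of -0.24 and -0.50. Fgl1, a liver-secreted protein gene, had changes of 0.02 in liver and 0.09 in marrow; another probe gave 0.93 and 2.69. Other lists covered heme breakdown and scavenging, hypoxia and glycolysis, the circadian clock, acute phase, sterol synthesis and interferon-stimulated genes. Further ones covered neutrophils, monocytes and macrophages, stem and progenitor cells, coagulation and complement, and cytochrome P450. These lists had 5 to 28 genes measured in both tissues. In them 0 genes differed between tissues, against 0.848% of all genes, and at these list sizes 0 is close to that share. Letters of the E-box, CACGTG, occurred in 5 of 17 clock promoters (29.4%) against 7.24% of all promoters, while the clock list's median changes were 0.02 in marrow and 0.06 in liver.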

How the data were processed

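Single-colour Agilent arrays measured total RNA of liver and bone marrow. The deposited files give intensity per spot as the scanner software made it (Agilent Feature Extraction 10.10.1.1, per the submitters' processing notes), already background-subtracted and spatially detrended per the file headers. The deposited value table holds the authors' processed log2 values (limma, per the submitters' processing notes), used here as an alternative. Each array's log2 intensity was set relative to its 75th percentile, spots of a probe were averaged, outlier spots were left out, and a gene with several probes was given by the probe with the highest mean. Array names were updated through RefSeq tables.

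One limma model (3.58.1, R 4.3.3) with 4 group means was fitted over 16 arrays and all 17578 genes, p-values were Benjamini-Hochberg adjusted over all of them, and genes measured in 1 tissue were fitted on its 8 arrays and adjusted over all genes kept there (21099 in marrow, 18896 in liver). The code was checked on simulated data. The series' design gives 4 mice per time, so livers and marrows probably share mice, but which liver belongs with which marrow is not given in the sources used here. The main model therefore has no block and treats the 16 arrays as independent, which its p-values assume; blocked fits are among the alternatives. The 24 h arrays stayed out of the main fit because 1 of them carries RNA of the other tissue. They enter only as an alternative, with all 24 arrays.

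The genes named by rank were, by rule, those with the smallest p-values in each direction: 10 each way for the difference, with signal above background on all 16 arrays, up to 8 each way for the shared change among genes with separated arrays in both tissues, and 6 each way for marrow alone, passing over names that are only a probe, accession, clone or predicted gene. Up to 4 members of each list, by the smallest p-value, and a set of candidate genes were added. The members and lists were chosen with earlier results of these data known. Alternatives changed the scaling, background, filter, probes, arrays and blocks. Promoters come from RefSeq (GRCm38.p6), and other genome sequence was not used here. Results for some genes are not reported here.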

Additional observations from a re-analysis of the deposited data

Results flagged for a closer look

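The marrow and liver changes of 37 named genes differed by limma's test of the difference itself (adjusted p under 0.05). On the log2 scale the marrow change minus the liver change was 2.82 for Trib3, 1.40 for Slc23a1, 1.21 for Reep6, 1.15 for Ctsf, 1.12 for Ces2g, 1.01 for Tceal8, 1.0 for Hspbap1, 0.95 for Shmt2, 0.90 for Atf5, 0.86 for Bdh1, 0.82 for Glo1, 0.81 for Cpox, 0.79 for Rhd, 0.76 for Aars, 0.73 for Tars, 0.73 for Mtfp1, 0.66 for Alad, 0.66 for Prdx2, 0.63 for Prdx3, 0.62 for Hspd1, 0.60 for Orc6, 0.60 for Tal1, 0.53 for Gars, 0.48 for Atp5b and 0.43 for Ndufs3. It was negative for the others, -1.11 for Hbb-bt, -1.11 for Ltbp2, -1.01 for Qpct, -0.86 for Hba-a1, -0.71 for Slco4a1, -0.68 for Agt, -0.66 for Map3k14, -0.65 for Rras2, -0.62 for Mpzl1, -0.59 for Vegfc, -0.58 for Crocc and -0.58 for Rfx3.

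In 28 of 376 groups of 4 arrays, over the 103 genes named, 1 array lay apart from the other 3 by Dixon's test; chance marks about 1 in 20 groups. Levels are given with the range of the other 3 arrays.
On liver 0 h replicate 1 the level was 4.15 for Alad against 4.26 to 4.28. For liver 0 h replicate 2 the level was -0.41 for Ciita against 0.03 to 0.11, 3.13 for Slc40a1 against 3.61 to 3.64, 1.94 for Trib3 against 0.66 to 0.86. The level on liver 0 h replicate 3 was 4.30 for Prdx2 against 4.55 to 4.55. On liver 0 h replicate 4 the level was 6.39 for Hspd1 against 6.25 to 6.26, 0.77 for Orc6 against 0.61 to 0.62, -0.26 for Pmm1 against -0.14 to -0.11. For liver 48 h replicate 1 the level was -2.06 for Bank1 against -1.87 to -1.83, 7.85 for Hba-a1 against 8.43 to 8.53, 7.77 for Hba-a2 against 8.39 to 8.48, 5.48 for Hbb-bt against 6.10 to 6.20, -1.78 for Slc4a1 against -0.79 to -0.75. The level on liver 48 h replicate 3 was 5.50 for Glo1 against 5.65 to 5.68, 1.73 for Pim1 against 2.29 to 2.33, -1.47 for Rfx3 against -1.60 to -1.59. On liver 48 h replicate 4 the level was 6.20 for Atf4 against 5.89 to 5.94, 5.31 for Naprt against 5.17 to 5.19. For marrow 0 h replicate 2 the level was 4.84 for Cyc1 against 5.11 to 5.15, -2.88 for Gimap7 against -3.32 to -3.29. The level on marrow 0 h replicate 3 was 4.93 for H2-Ab1 against 5.11 to 5.13, -1.26 for Smad7 against -1.40 to -1.38. On marrow 0 h replicate 4 the level was 4.48 for Epor against 3.95 to 4.04, 3.50 for Prdx3 against 3.35 to 3.37. For marrow 48 h replicate 2 the level was 4.15 for Prdx3 against 3.82 to 3.85, 2.80 for Prss34 against 3.05 to 3.10. The level on marrow 48 h replicate 3 was 1.92 for Ctsf against 1.64 to 1.66, 3.46 for Hmox1 against 3.92 to 3.99.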

How the results depend on the processing

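The number of differences between tissues was 149. It was 13 with median scaling, 69 with the authors' processed values, 52 with a filter of 1 of 4 groups, 21 with no filter, 85 with the mean of the kept probes, 41 with slide as a block and 356 with array weights. The marrow count of 570 was 885 with quantile normalisation of 16 arrays, 108 with median scaling, 126 with no filter, 281 with slide as a block, 2016 with array weights and 171 on 8 arrays. The liver count of 7 was 2 with median scaling and with the filter of 1 of 4 groups, and 0 with no filter and on 8 arrays. It was 3 with slide as a block, 16 with array weights and 12 with all 24 arrays. That last fit includes the 24 h arrays, of which 1 carries RNA of the other tissue. The shared count of 90 was 17, 19, 18 and 290 with median scaling, no filter, slide as a block and array weights. The 2 candidate differences were 1 with median scaling, the filter of 1 of 4 groups, the mean of the kept probes, every kept probe and slide as a block, 0 with no filter and 4 with array weights. The marrow-alone count of 53 was 233 with array weights and 12 with slide as a block, and the liver-alone count was 0 in all. The cause was not tested, except that no filter and the filter of 1 of 4 groups tested 37008 and 22399 genes. Array weights ran from 0.39 to 4.11, with the highest on marrow 0 h replicate 3.

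Leaving out 1 array at a time gave 26 to 147 differences, 135 to 613 marrow calls, 0 to 23 liver calls, 28 to 136 shared calls, 0 to 3 candidate calls, and 19 to 53 marrow-alone and 0 to 0 liver-alone calls. The sign turned for Fgl1, to -0.17 with normexp, -0.02 without liver 0 h replicate 1 and -0.03 without liver 48 h replicate 1. It turned for Rhd, to -0.39 with the authors' processed values and -0.98 with the filter of 1 of 4 groups and with no filter, and for Bmp6, to 0.04 without marrow 48 h replicate 3. Without single arrays Fgl1 ran from -0.03 to 0.18 and Bmp6 from -0.41 to 0.04. The fits on 8 arrays and with the percentile over probes were chosen after seeing the data. Of 37 named differences, 4 held in every alternative and 24 were lost without at least 1 array.

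Replicate numbers were also used as a block. With a random block for number within a time there were 215 differences, 540 marrow, 7 liver and 51 shared calls. With marrow minus liver per number there were 27 differences and 0 candidate calls. With a fixed replicate block over all groups there were 44 differences, 350 marrow, 4 liver and 44 shared calls and 1 candidate call. Same-numbered samples correlated at 0.0594 to 0.197 in their deviations, over 0.1 for 6 of 8 pairs, and 7 of 8 correlated best with their own number, which is a hint from the data and not the design.

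With 4 arrays a group the median standard error of a difference was 0.16, and dim probes near background were measured least well.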
